A study of Mus musculus with 4 samples.

Results

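Accessible DNA was compared between 2 libraries of CD8+ T cells from BALB/c mice: cells stimulated and treated with phenelzine, and cells stimulated and left untreated. Both groups received PMA, labelled at 1 mg/mL, and ionomycin, labelled at 10 mM, for 2 h. Stimulation was therefore shared and phenelzine was the only labelled difference. The series title places the cells in tumours; the sources used here do not give the dose and duration of phenelzine, the tumour, the age of the mice or the number of animals behind each library. The assay was ATAC-seq, in which Tn5 transposase inserts adapters into open chromatin and stretches with many insertions are called as peaks. Each condition had 1 library and no replicate, so the lists are described without a test.

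The stimulated phenelzine list held 9322 peaks on chromosomes 1 to 19 and X, and the stimulated untreated list 10405. Merging peaks that overlapped by at least 1 bp gave 13215 regions, of the 15237 that all 4 libraries of the series gave together. The other 2 libraries, unstimulated cells with phenelzine (7929 peaks) and without it (6519 peaks), took no part in sorting regions into classes and served as a further readout. Peaks covered 1634.87 kb in the stimulated phenelzine list and 1942.94 kb in the stimulated untreated list. The background pileup implied by the peak statistics was 0.489 in the phenelzine list and 0.493 in the untreated list. Read totals are not in the lists, so library depth itself is unknown. A region missing from a list had no peak that passed the authors' threshold there, which is not the same as closed DNA.

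Phenelzine is an irreversible inhibitor of monoamine oxidases and also inhibits LSD1, the demethylase encoded by Kdm1a, which removes methyl groups from lysine 4 and, in some complexes, lysine 9 of histone H3. LSD1 works in corepressor complexes with CoREST proteins (Rcor genes) and histone deacetylases. PMA and ionomycin bypass the T cell receptor: PMA activates protein kinase C, and ionomycin raises calcium and so activates calcineurin and NFAT. Within minutes this induces immediate early genes, among them the Fos and Jun genes whose products form AP-1, and later cytokine and effector genes.

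The promoters below belong to list genes described in the results, chosen for their roles and not for peak strength, with 1 held by both lists for comparison. Each is the RefSeq promoter of build GRCm38.p6 (mm10), from 250 bases before to 50 bases after the start site, read 5′ to 3′ on the gene's strand. Capitals mark the bases inside the called region. Shown first are starts held by the phenelzine list alone. These are Kdm1a at chr4:136602674-136602973 on the minus strand, Dusp2 at chr2:127335909-127336208 on the plus strand and the internal start of Rcan1 at chr16:92400029-92400328 on the minus strand. Dusp2 encodes a nuclear MAP kinase phosphatase and Rcan1 a calcineurin inhibitor whose internal promoter is a known NFAT target.
Kdm1a: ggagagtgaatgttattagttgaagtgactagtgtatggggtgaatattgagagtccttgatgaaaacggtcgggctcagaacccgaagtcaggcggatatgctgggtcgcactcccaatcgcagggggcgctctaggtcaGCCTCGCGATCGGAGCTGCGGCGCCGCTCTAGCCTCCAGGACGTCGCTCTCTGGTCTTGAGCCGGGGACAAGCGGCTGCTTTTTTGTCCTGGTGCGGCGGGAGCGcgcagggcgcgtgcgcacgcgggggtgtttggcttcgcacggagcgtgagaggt
Dusp2: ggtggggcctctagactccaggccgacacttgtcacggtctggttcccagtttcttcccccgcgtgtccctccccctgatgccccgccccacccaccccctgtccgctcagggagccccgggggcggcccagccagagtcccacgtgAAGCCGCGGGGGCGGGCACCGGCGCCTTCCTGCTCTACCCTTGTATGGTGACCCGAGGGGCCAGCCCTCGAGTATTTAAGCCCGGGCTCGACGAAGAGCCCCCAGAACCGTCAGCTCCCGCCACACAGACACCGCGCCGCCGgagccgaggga
Rcan1: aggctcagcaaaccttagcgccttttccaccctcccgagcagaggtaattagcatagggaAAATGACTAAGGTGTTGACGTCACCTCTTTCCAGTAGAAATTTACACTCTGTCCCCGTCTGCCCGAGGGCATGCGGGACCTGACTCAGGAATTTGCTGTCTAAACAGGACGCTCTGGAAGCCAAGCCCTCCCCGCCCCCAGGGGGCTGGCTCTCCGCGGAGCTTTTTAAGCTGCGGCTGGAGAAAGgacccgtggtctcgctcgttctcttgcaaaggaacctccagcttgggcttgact
Starts held by the untreated list alone are those of Fos at chr12:85473640-85473939 on the plus strand, Dusp1 at chr17:26508423-26508722 on the minus strand and Ccl3 at chr11:83649329-83649628 on the minus strand. Fos encodes an AP-1 subunit, Dusp1 another MAP kinase phosphatase and Ccl3 a chemokine of activated CD8 T cells.
Fos: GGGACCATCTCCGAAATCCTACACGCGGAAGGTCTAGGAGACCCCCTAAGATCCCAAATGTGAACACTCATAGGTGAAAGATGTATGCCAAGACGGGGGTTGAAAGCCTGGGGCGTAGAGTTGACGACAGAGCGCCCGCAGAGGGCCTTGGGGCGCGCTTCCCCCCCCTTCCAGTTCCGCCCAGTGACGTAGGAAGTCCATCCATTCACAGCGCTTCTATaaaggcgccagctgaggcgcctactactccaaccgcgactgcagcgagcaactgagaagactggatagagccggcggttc
Dusp1: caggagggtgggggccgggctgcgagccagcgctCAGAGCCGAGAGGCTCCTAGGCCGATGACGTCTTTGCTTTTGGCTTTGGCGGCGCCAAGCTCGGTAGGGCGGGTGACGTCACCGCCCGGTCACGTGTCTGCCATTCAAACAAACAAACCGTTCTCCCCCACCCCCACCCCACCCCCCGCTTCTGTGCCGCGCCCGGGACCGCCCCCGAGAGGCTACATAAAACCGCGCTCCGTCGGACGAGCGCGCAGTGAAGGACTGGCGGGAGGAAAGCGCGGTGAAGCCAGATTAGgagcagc
Ccl3: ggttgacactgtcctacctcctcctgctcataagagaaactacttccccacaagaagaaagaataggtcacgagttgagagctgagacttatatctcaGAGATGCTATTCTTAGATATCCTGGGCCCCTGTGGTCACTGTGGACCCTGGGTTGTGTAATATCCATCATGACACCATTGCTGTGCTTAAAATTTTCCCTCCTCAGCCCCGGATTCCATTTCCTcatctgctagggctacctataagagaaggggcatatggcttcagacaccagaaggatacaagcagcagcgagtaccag
The start of B2m, the light chain of MHC class I, at chr2:122147437-122147736 on the plus strand was held by both lists.
B2m: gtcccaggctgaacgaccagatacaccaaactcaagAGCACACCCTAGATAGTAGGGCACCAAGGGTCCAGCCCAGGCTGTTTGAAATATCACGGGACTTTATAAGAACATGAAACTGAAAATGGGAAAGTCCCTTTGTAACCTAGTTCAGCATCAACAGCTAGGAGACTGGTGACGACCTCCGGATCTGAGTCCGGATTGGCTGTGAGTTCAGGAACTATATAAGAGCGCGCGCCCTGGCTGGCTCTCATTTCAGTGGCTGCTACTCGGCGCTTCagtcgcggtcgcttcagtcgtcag
The AP-1, CRE, NF-kB, Ets, NRF1, YY1 and SP/KLF motifs were located in these 300 bases on both strands. The Rcan1 window held the AP-1 motif TGANTCA, spelled TGACTCA, 110 bases before the start, and the CRE motif TGACGTCA 175 bases before it. It also held the SP/KLF motif on the opposite strand 61 bases before the start. The Dusp1 window held TGACGTCA 143 bases before its start. Dusp2 held the SP/KLF motif GGGGCGGGG on the opposite strand 169 bases before the start, and B2m the NF-kB motif, as GGAAAGTCCC on the opposite strand, 126 bases before. None of these motifs was found in the Kdm1a, Fos or Ccl3 windows. A match is a description of letters, not of binding.

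Of the 13215 regions, 2821 were held by the phenelzine list alone (21.3%, 95% interval 20.7 to 22.1), 3919 by the untreated list alone (29.7%, 28.9 to 30.4) and 6475 by both (49.0%, 48.1 to 49.9). Phenelzine regions were thus 41.9% (40.7 to 43.0) of the 6740 regions held by 1 list. All intervals here are exact Clopper-Pearson intervals and cover counting error only, not variation between animals or libraries. Regions of 1 list were narrow, with median widths of 99 bp in the phenelzine list alone and 105 bp in the untreated list alone, against 219 bp for shared regions.

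Over all called peaks, shared regions lay mostly at promoters and regions of 1 list mostly did not. A region was placed at a gene start when it came within 1 kb of a RefSeq start site, or of either end of a gene whose start site was not in the table. At gene starts lay 29.4% (27.7 to 31.1) of regions of the phenelzine list alone, 31.7% (30.2 to 33.2) of those of the untreated list alone and 71.5% (70.4 to 72.6) of shared regions. Both lists were also cut to peaks with −log10 q of at least 3 and their regions sorted into classes again. The shares at starts were then 64.1% of phenelzine-alone, 64.6% of untreated-alone and 85.8% of shared regions. These new classes held 1115 phenelzine-alone and 2135 untreated-alone regions, many with a weaker peak in the other list. Of the original 1-list regions, 403 phenelzine-alone and 863 untreated-alone ones reached that threshold. With lists cut to fold of at least 5 in the same way the shares at starts were 65.1% of phenelzine-alone, 66.5% of untreated-alone and 87.1% of shared regions. Gene bodies away from starts held 33.1% of phenelzine-alone, 32.6% of untreated-alone and 11.8% of shared regions. More than 50 kb from any start lay 26.8% of phenelzine-alone, 22.8% of untreated-alone and 10.4% of shared regions.

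**Figure D1:**
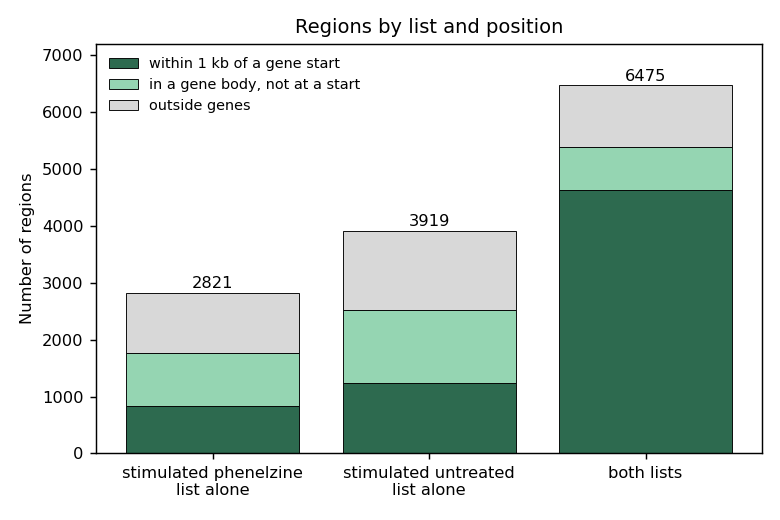
Number of regions (y axis) held by the stimulated phenelzine list alone, the stimulated untreated list alone and both, split by position; each condition is 1 library. Shared regions number 6475 and are mostly at gene starts, while the 2821 phenelzine-alone and 3919 untreated-alone regions are spread over starts, gene bodies and DNA outside genes.

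Regions at gene starts sat just before the start in all 3 classes. Region centres lay at a median of −31.5 bp relative to the start for the phenelzine list alone, −37.75 bp for the untreated list alone and −57 bp for both, negative being upstream. Within 200 bp of the start were 82.7% of the 676 phenelzine-alone regions that had a start site with known strand, 81.7% of the 1018 untreated-alone ones and 87.8% of the 3966 shared ones. The profiles of the phenelzine-alone and untreated-alone regions lay close together in every bin.

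**Figure D2:**
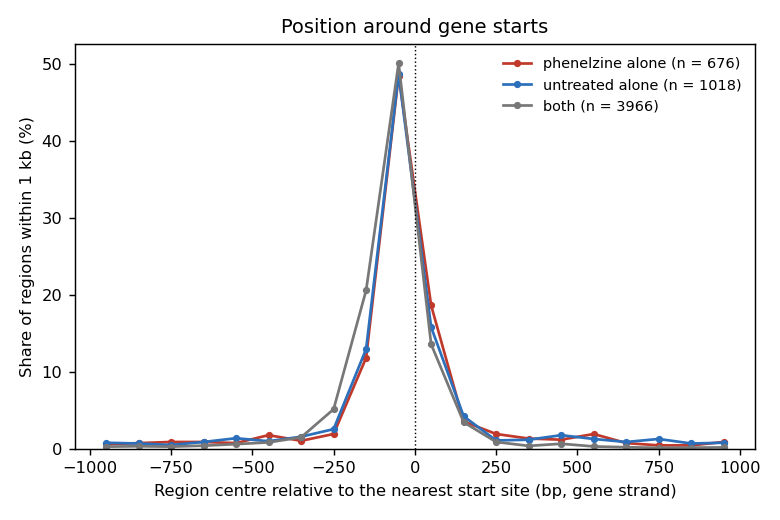
Share of regions (y axis, percent of the regions of each class within 1 kb of a start site of known strand) in bins of 100 bp by the distance of the region centre from the start (x axis, bp; negative is upstream). The bin from 100 bp before to the start holds 48.5% of phenelzine-alone, 48.7% of untreated-alone and 50.1% of shared regions.

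Stronger peaks were held by the other list more often. Strength was read from the authors' fold enrichment and −log10 q, a larger value meaning a peak further above background; both belong to a peak's own list and were ranked only within it. Each list was split into 5 groups of equal size by −log10 q. In the strongest group of the phenelzine list 96.1% (95.1 to 96.9) of regions were held by the untreated list, and in the weakest group 39.0% (36.8 to 41.3). In the untreated list the strongest group was held by the phenelzine list in 94.8% (93.8 to 95.7) and the weakest in 29.4% (27.4 to 31.4). Ranking by fold enrichment gave 95.5% and 39.8% for the strongest and weakest group of the phenelzine list, and 94.4% and 30.4% for those of the untreated list. Of the 100 strongest regions, 98 of the phenelzine list were held by the untreated list and 99 of the untreated list by the phenelzine list. Over the 6475 shared regions the 2 lists' −log10 q had a Spearman rank correlation of 0.567, given as a description because regions of 1 library share its depth.

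**Figure D3:**
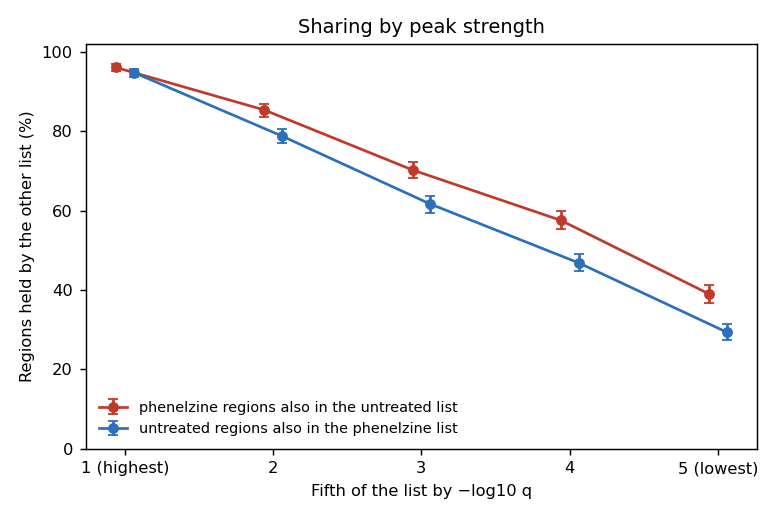
Share of regions also held by the other list (y axis, percent) in 5 groups of each list ranked on −log10 q (x axis, strongest first), phenelzine list in red and untreated list in blue; bars are exact 95% intervals for counting error. Both lines fall, to 39.0% for the phenelzine list and 29.4% for the untreated list.

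Regions of 1 list were accordingly weak. Median −log10 q was 1.91 for the phenelzine list alone and 2.09 for the untreated list alone. Shared regions had medians of 3.24 in the phenelzine list and 3.83 in the untreated list. A −log10 q of at least 3 was reached by 403 phenelzine-alone regions (14.3%) and 863 untreated-alone regions (22.0%).

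Few regions of 1 list stood well above background. Among the strongest of the phenelzine list alone was a region at chr9:3015695-3015763, with fold 11.4 and −log10 q 21.3. It lay 319468 bp from its nearest gene, Alkbh8, and was in neither unstimulated list. No repeat or mappability filter was applied to this region or to others. At gene starts the strongest were Pacc1, which encodes a proton-activated chloride channel (−log10 q 9.61), Snrpf, a core spliceosome protein gene (8.36), and Dpp3, a peptidase gene (6.84). Armc7, the MHC class I gene H2-Q7, Cwf19l1, the SUMO-activating enzyme gene Uba2 and the mitotic kinesin gene Kif11 followed, between 6.36 and 6.09. Of these 8 starts, Cwf19l1 alone was held by neither unstimulated list.

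In the untreated list alone the strongest region lay inside Arhgef4, a guanine nucleotide exchange factor gene, at chr1:34753041-34753110, with fold 9.89 and −log10 q 13.02, and was in neither unstimulated list. At gene starts the strongest were Gm10509 (8.90), the RNA ligase gene Rtcb (8.63), the zinc-finger gene Zfp131 (8.43), the ribonuclease gene Rnase4 (8.42), the spliceosome gene Prpf8 (8.34) and D10Wsu102e (8.15). Rida and Ccdc134 followed with 7.95 and 7.72. Rnase4 carried a phenelzine-alone region too, at chr14:51089411-51089527 (6.99), 1550 bp from its start, while the untreated-alone region lay 398 bp from it at chr14:51090582-51090679. The lists thus differed there by which of 2 neighbouring stretches passed the threshold.

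The strongest shared regions were mostly far from genes. All 36 shared regions with a −log10 q of at least 50 in the phenelzine list were held by all 4 lists; 1 lay at a gene start and 20 lay more than 50 kb from any. The strongest, 1197667 bp from Galc, had −log10 q 482 in the phenelzine list and 647 in the untreated list. No repeat or mappability filter was applied here. Among the best at gene starts were the class I gene H2-D1, with −log10 q 16.3 in phenelzine and 24.4 in untreated cells, and Top2a, the DNA topoisomerase gene of dividing cells, with 16.1 in phenelzine and 9.68 in untreated cells.

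Genes were then compared by the number of regions in their locus, the gene body with 20 kb on either side. Of 21631 protein-coding genes, 10.4% (2244 genes) had more regions in the phenelzine list and 16.3% (3518) had fewer; 6184 had the same number and 9685 had none in either list. Among the 11946 genes with at least 1 region the shares were 18.8% with more and 29.4% with fewer, and among the 5743 with at least 2 regions they were 23.5% with more and 37% with fewer. At gene starts, 3.5% of genes (757) had a region of the phenelzine list alone, 5.36% (1160) of the untreated list alone and 24.8% (5354) in both lists. At least 2 more regions with phenelzine were found in 1.14% of genes and at least 2 fewer in 2.72%. Counts for gene lists are set beside these shares, since the untreated list was longer.

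Of the 19 gene lists, immediate early and AP-1 genes had the highest share of all members with fewer regions in phenelzine-treated cells. Among members with a region, 11 of 20 had fewer here and 3 of 3 B cell markers did. The lists were chosen with earlier results of these data known. Of 22 members, 2 had more regions with phenelzine and 11 had fewer (50%, against 16.3% of all genes); 7 had the same number and 2, Batf and Batf3, had none. Of the 14 members with at least 2 regions, 1 had more and 10 had fewer, where of all such genes 23.5% had more and 37% fewer. Summed over members the locus counts were 34 in the phenelzine list and 47 in the untreated list, made of 5 distinct regions of the phenelzine list alone, 18 of the untreated list alone and 29 of both. At least 2 more regions were found in 1 member, Fosb, and at least 2 fewer in 3, Fos, Dusp1 and Egr3. The median difference was −0.5 regions per gene, against 0 over all genes.

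Fos had 1 region in the phenelzine list and 4 in the untreated list. The untreated-alone regions were 1 at its start (−log10 q 3.50), 1 lying 5034 bp away (2.26) and 1 lying 12114 bp away (6.72). Dusp1 had 0 regions in the phenelzine list and 3 in the untreated list, with 1 at its start (2.78); that start was held by both unstimulated lists. Egr3, a zinc-finger factor gene of early growth response, had 0 in the phenelzine list and 2 in the untreated list, and both of those regions were in both unstimulated lists. The further of the 2 lay at the start of the neighbouring gene Bin3.

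Other members differed by 1 region. Fosl2, an AP-1 gene, had 0 in the phenelzine list and 1 in the untreated list, at its start (2.07). Jun had 1 in the phenelzine list and 2 in the untreated list, Nr4a1 and Nr4a3, orphan nuclear receptor genes induced by antigen signals, 2 with and 3 without phenelzine each, and Ier2 2 with and 3 without phenelzine. Myc, which drives growth after activation, also had 2 with and 3 without phenelzine, and the untreated-alone region lay 153 bp from an end of the gene (2.13). Ier3 had 5 with and 6 without phenelzine and Zfp36, which encodes an mRNA decay factor, 3 with and 4 without phenelzine. Several of these differences rested on weak peaks: the untreated-alone region had −log10 q 1.53 at Nr4a3, 1.59 at Jun, 1.80 at Nr4a1 and 1.92 at Zfp36. That of Nr4a1 lay outside the gene, at the neighbouring gene Atg101, and was also in the unstimulated phenelzine list.

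In the other direction, Fosb had 5 regions in the phenelzine list and 3 in the untreated list. Its 2 phenelzine-alone regions had −log10 q 1.96 and 1.32. Dusp2 had 1 with phenelzine, at its start (1.70), and 0 without. Junb, Jund, Atf3, Egr1, Egr2, Nr4a2 and Fosl1 had as many regions in each list. Junb had 3 in each, but not the same 3, since each list had 1 region of its own there. Fosl1 had no region common to both lists.

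At the start sites themselves, all start windows of a gene counted as one, most members were shared. A start was held by both lists in 13 of 22 members (59.1%, against 24.8% of all genes), by the phenelzine list alone in 1, Dusp2, and by the untreated list alone in 4, Fos, Dusp1, Fosl2 and Myc. Junb had a −log10 q of 2.78 in the phenelzine list and 6.52 in the untreated list, Nr4a3 2.58 with and 6.51 without phenelzine, Jun 4.97 with and 6.31 without, and Egr2 2.05 with and 2.49 without. The value in the phenelzine list was the larger number at Ier3, with 3.24 with and 1.94 without phenelzine, Egr1, with 3.03 with and 2.06 without, Zfp36, with 2.82 with and 1.57 without, and Nr4a2, with 2.68 with and 2.27 without. Each value belongs to its own list, and no difference between the lists was tested.

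**Figure D4:**
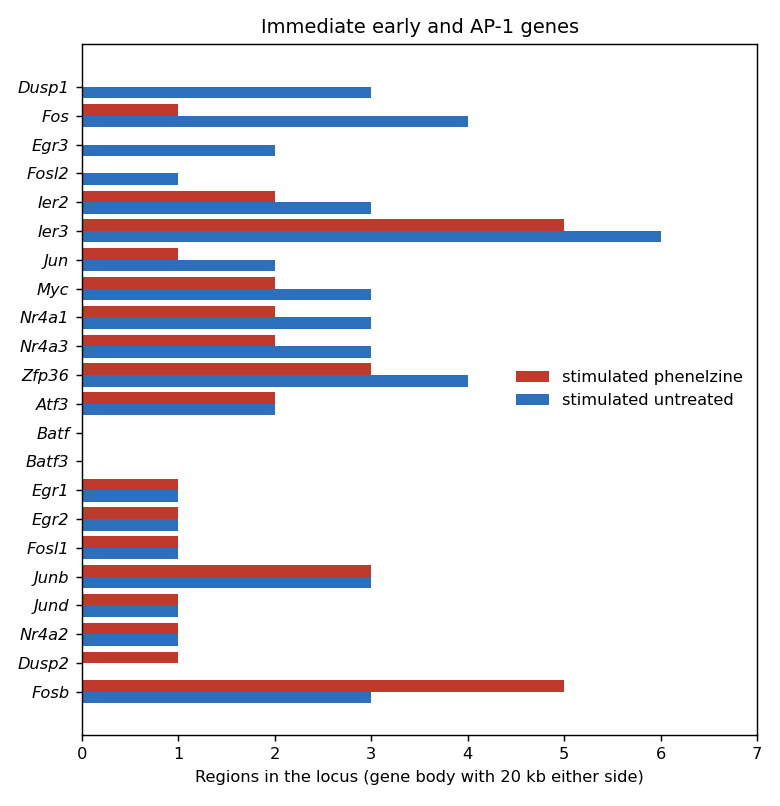
Regions in the locus (x axis; gene body with 20 kb either side) of each of the 22 immediate early and AP-1 genes, stimulated phenelzine above stimulated untreated; 1 library each. Fos has 1 with and 4 without phenelzine and Dusp1 0 with and 3 without phenelzine, while Fosb has 5 with and 3 without phenelzine and Dusp2 1 with and 0 without phenelzine.

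The NF-kB and NFAT pathway was even. Of 15 members, 3 had more regions with phenelzine, 3 had fewer and 9 had the same number, with sums of 28 in the phenelzine list and 29 in the untreated list. With all start windows of a gene counted as one, 0 members were held by the phenelzine list alone and 3 by the untreated list alone. Among the 3 were Rela and Rel, NF-kB subunit genes, with −log10 q 2.84 and 1.74 and 0 regions in the phenelzine list against 1 in the untreated list each. The last was Ppp3ca, a calcineurin catalytic subunit gene, with 5.49 at one end of the gene. Rcan1 had 3 regions in the phenelzine list and 2 in the untreated list, the difference being the internal start shown above (−log10 q 1.79), while its distal start was held by both lists, with 1.75 in phenelzine and 5.96 in untreated cells. Nfatc2, an NFAT gene, likewise had a start region of the phenelzine list alone at chr2:168589408-168589670 (1.03) and another of the untreated list alone at chr2:168601823-168601979 (1.78). Nfatc1 had 1 region in the phenelzine list and 3 in the untreated list. Tnfaip3, which encodes the NF-kB inhibitor A20, had 1 region in each, with −log10 q 2.00 in phenelzine and 9.44 in untreated cells. Nfkbia, another NF-kB inhibitor gene, had 5.57 in phenelzine and 1.95 in untreated cells, Nfatc3 7.47 in phenelzine and 5.66 in untreated cells, and Relb 5.64 in phenelzine and 4.15 in untreated cells.

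The targets of phenelzine and their partners went both ways. Of 17 genes of LSD1 complexes and monoamine oxidases, 4 had more regions with phenelzine (23.5%) and 3 had fewer (17.6%). Kdm1a had 1 region in the phenelzine list, at its start at chr4:136602728-136602832, with fold 5.97 and −log10 q 4.55, and 0 in the untreated list. The unstimulated phenelzine list held that region and the unstimulated untreated list did not, so it was found in both phenelzine libraries and in neither untreated one. Of all phenelzine-alone regions 14.0% (395) had this pattern. A similar share of untreated-alone regions, 14.6% (571), was also in the unstimulated phenelzine list and not in the unstimulated untreated list. Maoa, a monoamine oxidase gene, had 0 in the phenelzine list and 1 in the untreated list (−log10 q 2.73), lying 1104 bp from its start at chrX:16618487-16618594. That region was held by the unstimulated untreated list and not by the unstimulated phenelzine list, as were 7.48% (293) of untreated-alone and 8.12% (229) of phenelzine-alone regions. Maob had none.

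Among the partners, Rcor1, which encodes CoREST, Kdm1b, the LSD1 paralog, and Hmg20b had as many regions in each list and starts held by both. Hdac1, a histone deacetylase gene, had 2 in the phenelzine list and 1 in the untreated list, and Mta2, a NuRD subunit gene, also 2 with and 1 without phenelzine, while Mta1 had 1 with and 2 without phenelzine. Rcor3 had 2 with phenelzine and 0 without, but both regions lay at or within 413 bp of the start of the neighbouring gene Traf5. The repressor gene Gfi1b had 0 with phenelzine and 1 without. The regions of 1 list at these other partners also lay at the starts of neighbouring genes. They were at Marcksl1 for Hdac1, at Tut1 for Mta2, 283 bp from Gm30599 for Mta1 and 246 bp from Tsc1 for Gfi1b.

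Genes of amine and vitamin B6 metabolism were included because hydrazines such as phenelzine also act on enzymes that use pyridoxal phosphate. Of 13, 4 had more regions with phenelzine and 0 had fewer: Gad1, which makes GABA, Abat, which breaks it down, and Pdxk, the pyridoxal kinase gene, each had 1 with and 0 without phenelzine, and the alanine aminotransferase gene Gpt had 2 with and 1 without phenelzine. The phenelzine-alone regions of Abat, Pdxk and Gpt lay outside these genes, at the starts of the neighbouring genes Tmem186, Cstb and Lrrc24. The Gad1 region lay outside the gene, 10477 bp from its nearest start or end. The 9 summed regions with phenelzine and 5 without are small counts, and with all start windows of a gene counted as one none of these genes was held by 1 list alone.

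Among 24 other histone methyltransferases and demethylases, 4 had more regions with phenelzine, 5 had fewer and 13 had the same number, with a sum of 37 in each list. Ezh2, the methyltransferase of the Polycomb complex PRC2, had 0 with phenelzine and 1 without, at its start (4.68), which the unstimulated phenelzine list also held. Kdm2a, an H3K36 demethylase gene, had 3 with phenelzine and 1 without. The starts of 14 members, among them Kdm5c, Kdm6a, Ehmt1 and Kmt2a, were held by both lists.

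**Figure D5:**
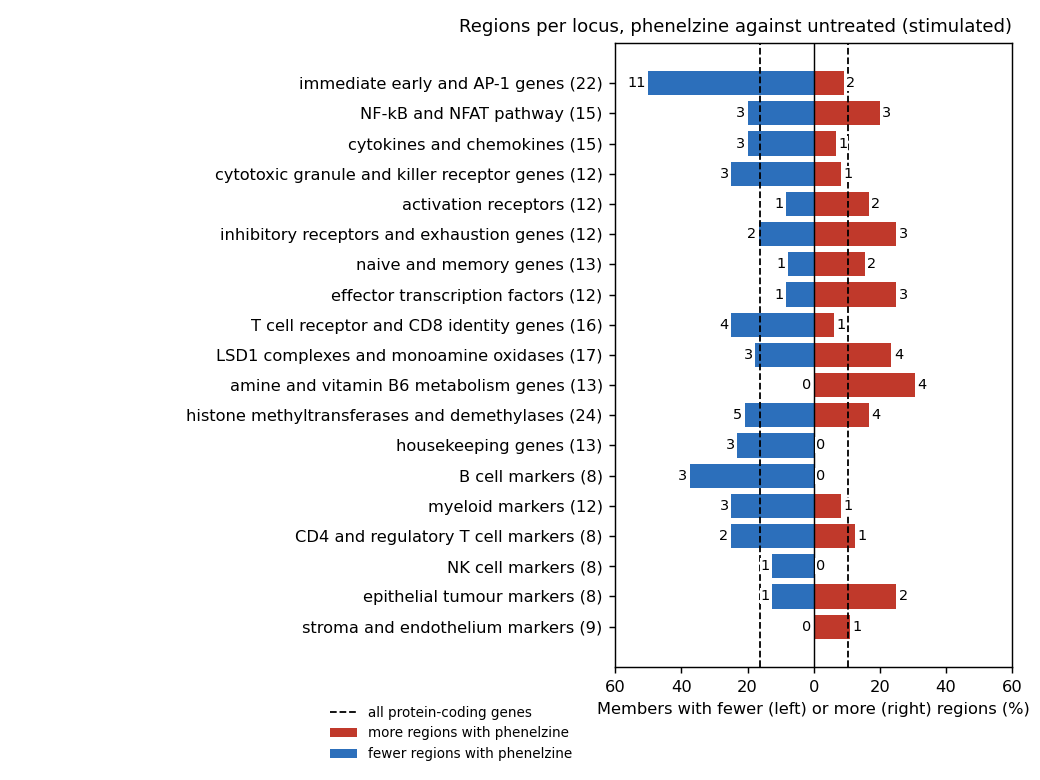
Members of each gene list with more regions with phenelzine (red, right) or fewer (blue, left) as a percentage of matched members, whose number is in brackets; numbers at the bars are genes, and dashed lines mark 10.4% with more and 16.3% with fewer over all protein-coding genes. Immediate early and AP-1 genes reach 50% with fewer.

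Few effector genes had a region in either stimulated list. Neither stimulated list held a region in the loci of the cytokine genes Ifng, Il2 and Tnf or of Gzmb and Prf1, the granzyme B and perforin genes. The unstimulated phenelzine list held 1 region in the locus of Tnf. Of 15 cytokine and chemokine genes, 10 had none, 1 had more with phenelzine and 3 fewer. Ccl3 and Ccl4 had 1 with phenelzine and 2 without through the same untreated-alone region (−log10 q 3.72), Il10 had 0 with and 1 without phenelzine, and Tnfsf9, the 4-1BB ligand gene, had 1 with and 0 without phenelzine. Of 12 cytotoxic granule and killer receptor genes 7 had none; Srgn, the granule proteoglycan gene, had 1 with phenelzine and 4 without, Lamp1 0 with and 1 without phenelzine at its start (4.94), Fasl 0 with and 1 without phenelzine and Nkg7 2 with and 1 without phenelzine.

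Receptor genes went both ways. Of 12 activation receptors 2 had more regions with phenelzine and 1 had fewer. Cd44, the hyaluronan receptor gene, had 3 with phenelzine and 2 without, but no region was common to the 2 lists: the 3 lay inside the gene, and its start was held by the untreated list alone (2.87). Tfrc, the transferrin receptor gene, had 2 with phenelzine and 3 without; its start was held by both, with −log10 q 7.60 in phenelzine and 2.99 in untreated cells. Tnfrsf9, which encodes 4-1BB, had 3 with and 2 without phenelzine.

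Among 12 inhibitory receptor and exhaustion genes 3 had more and 2 had fewer. Pdcd1, which encodes PD-1, had 2 regions with phenelzine and 1 without, the added one lying 3529 bp from its start (−log10 q 1.82). Cd244a and Tox2 had 2 with phenelzine and 0 without. Entpd1, which encodes the ectonucleotidase CD39, had 0 with phenelzine and 2 without, and both unstimulated lists held those 2 regions. Tigit had 0 with and 1 without phenelzine, and Lag3 and Havcr2 had as many in each list. At Lag3 these were not all the same regions. Its start was held by the untreated list alone (1.47), and the phenelzine list alone held a region 1900 bp from its nearest gene, Ptms (5.11). The shared region of Havcr2 lay at the neighbouring gene Med7.

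Of 13 naive and memory genes 2 had more, 1 had fewer and 6 had none. Bach2, a repressor gene that restrains effector differentiation, had 1 region with phenelzine and 4 without, all inside the gene. The phenelzine-alone region ended less than 1 kb from one of the untreated-alone regions, and −log10 q was at most 1.95 in all 5. Bcl2, a survival gene, had 3 with phenelzine and 1 without; the 3 lay in the gene or beyond its end and the 1 at its start (3.23). Tcf7, which encodes the naive and memory factor TCF1, had 1 with phenelzine and 0 without, at the start of the neighbouring gene Skp1.

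Of 12 effector transcription factor genes 3 had more and 1 had fewer. Stat4, which transmits interleukin-12 signals, had 3 with phenelzine and 1 without, and 1 of the 2 phenelzine-alone regions lay inside the gene (1.84). Hif1a, the hypoxia factor gene, had 3 with and 2 without phenelzine, and Bhlhe40 3 with and 2 without phenelzine. Zeb2, a factor of terminal effector cells, had 1 with and 3 without phenelzine. Prdm1, the Blimp-1 gene, had 1 in each list, and Irf4, Tbx21, Eomes and Runx3 had none.

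The label of the cells was checked against the T cell receptor and CD8 identity genes. Cd8a and Cd8b1, which encode the CD8 chains, had no region in either stimulated list, and neither did Zap70 or Cd2, so the lists neither show nor contradict the CD8 identity. Lck, Lat, Cd247, Ptprc and Thy1 had 1 region in each list. Those of Lck, Lat and Cd247 lay outside these genes, within 383 bp of the starts of the neighbouring genes Hdac1, Spns1 and Creg1. With all start windows of a gene counted as one, 0 of the 16 genes had a start held by both lists. Of 16 genes 1 had more with phenelzine and 4 had fewer; Cd5 had 0 with and 1 without phenelzine at its start (2.07), and Cd3d, Cd3g and Cd3e differed through 1 shared untreated-alone region at chr9:44986550-44986741.

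Markers of other cells also had regions. Of 8 B cell markers 0 had more and 3 had fewer, with sums of 2 in the phenelzine list and 6 in the untreated list: Cr2 had 0 with and 2 without phenelzine, and Cd79a 1 with and 2 without phenelzine, while Ms4a1, Pax5, Ebf1, Cd79b and Blnk were at 0 in both. The Cr2 regions lay within 433 bp of the start of the neighbouring gene Cr1l, and the Cd79a regions at the starts of Rps19 and Arhgef1. Of 12 myeloid markers 1 had more and 3 had fewer, with sums of 11 with phenelzine and 16 without. Cd14 had 3 with and 6 without phenelzine and Fcgr3 2 with and 4 without phenelzine, and the start of Cebpa was held by the untreated list alone (3.90), while Itgam, Csf1r, Adgre1, Lyz2 and S100a9 were at 0 in both. Markers of CD4 and regulatory T cells summed to 4 with phenelzine and 6 without, of NK cells to 2 with and 3 without, of epithelial tumour cells to 3 with and 2 without, and of stroma and endothelium to 4 with and 2 without. Fewer cells of a type and less open DNA per cell cannot be told apart in such bulk libraries. The part of other cells in the lower count of immediate early genes was not tested.

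Housekeeping genes gave a baseline. Of 13 matched genes 0 had more regions with phenelzine, 3 had fewer, Sdha and Tbp among them, and 9 had the same number, with sums of 21 in the phenelzine list and 24 in the untreated list. The starts of 9 were held by both lists. Actb, the beta-actin gene, had the same 4 regions in each list, and B2m had −log10 q 8.55 in phenelzine and 11.2 in untreated cells.

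The single loci with the largest differences mostly rested on several weak regions. Tgfbr3, the betaglycan gene, which encodes a co-receptor of TGF-beta, had 5 regions with phenelzine and 0 without; their −log10 q ran between 1.87 and 3.59 and 1 was in an unstimulated list, that with phenelzine. Ets1, a lymphocyte transcription factor gene, had 7 with phenelzine and 3 without. Atf6, a sensor gene of endoplasmic reticulum stress, had 6 with and 2 without phenelzine, and Fbn1, the fibrillin-1 gene, 4 with and 0 without phenelzine. Arhgap42 had 9 with and 6 without phenelzine, and Rad51b, a DNA repair gene, and Thada 7 with and 4 without phenelzine each. In all, 9 genes had at least 4 more regions with phenelzine and 23 had at least 4 fewer.

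Fewer regions with phenelzine were found at Fmnl2, a formin gene of the actin cytoskeleton, where 3 were held with and 9 without phenelzine; its 6 untreated-alone regions had −log10 q between 1.58 and 2.32. Sfi1, a centrosome gene, had 14 with and 19 without phenelzine, Aopep, an aminopeptidase gene, 1 with and 6 without phenelzine, Slx4ip 1 with and 6 without phenelzine and Atxn7l1 4 with and 8 without phenelzine. Cdk9, the kinase gene whose product releases paused RNA polymerase II, had 2 with phenelzine and 6 without. Its 4 untreated-alone regions also lay in the loci of Fpgs, Sh2d3c and 6330409D20Rik, so these 4 genes count the same DNA, and the hairpins of the microRNA genes Mir2861 and Mir3960 lay within 1 kb of 2 of them. None of the 4 was in the unstimulated untreated list and 1 was in the unstimulated phenelzine list. Iqgap1, a scaffold gene, Rere and Zfp608 had 2 with and 6 without phenelzine each. Ptk2b, the kinase gene for PYK2, had 1 with and 5 without phenelzine, with the strongest untreated-alone region at 5.45.

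The replication-dependent histone genes of chromosome 13 carried differences both ways within 1 cluster. In the largest block, 31 histone genes between positions 23531044 and 23934913, 4 regions were held by the phenelzine list alone, 6 by the untreated list alone and 15 by both. The untreated-alone regions mostly lay at 1 end: H2ac10 and H3c8 had 4 regions with phenelzine and 9 without, H2bc9 and H3c7 5 with and 9 without phenelzine and H4c8 4 with and 8 without phenelzine. The phenelzine-alone regions lay further along: H2ac4, H2bc3, H3c2, H3c3 and H4c2 had 8 with and 4 without phenelzine, through the same 4 regions, whose −log10 q lay between 1.51 and 2.76. Over all 83 histone genes 18 had more (21.7%) and 26 had fewer (31.3%), with sums of 216 in the phenelzine list and 211 in the untreated list. Histone genes are near-identical copies that lie close together, so regions are shared between loci and reads may be assigned to either of a pair of copies.

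Where genes of housekeeping families had a start region, it was mostly held by both lists. Of 85 cytosolic ribosomal protein genes, 67 starts were held by both lists, 5 by the phenelzine list alone and 4 by the untreated list alone; the phenelzine-alone starts included Rpl29 (−log10 q 2.85), and the untreated-alone starts Rpl13 (4.997). By locus 8 had more with phenelzine (9.4%) and 18 had fewer (21.2%). Of 81 oxidative phosphorylation genes, 13 had more (16.0%) and 20 fewer (24.7%); Sdhd, a succinate dehydrogenase subunit gene, had 1 with phenelzine and 4 without, and Cox5a, a cytochrome oxidase subunit gene, 2 with and 0 without phenelzine. Of 77 mitochondrial ribosomal protein genes, 11 had more and 13 fewer. Their starts were held by both lists in 37, by the phenelzine list alone in 6 and by neither list in 25. The untreated list alone held 9, Mrpl19 (6.57) and Mrps30 (4.49) among them. All 31 SR protein and hnRNP genes, which encode splicing regulators, had a region, and 29 starts were held by both.

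Some families held more members with fewer regions. Mediator genes had 4 of 30 with more (13.3%) and 10 with fewer (33.3%). Proteasome genes had 3 of 39 with more (7.7%) and 11 with fewer (28.2%); Psmb6 (5.20), Psmd11 (4.16) and Psmd13 (3.83) were starts of the untreated list alone and Psmb4 (4.35) of the phenelzine list alone. Of 394 genes with Zfp symbols, 42 had more (10.7%) and 93 had fewer (23.6%), with sums of 291 with phenelzine and 355 without; 41 starts were held by the untreated list alone, among them Zfp770 (5.03), and 21 by the phenelzine list alone. Most of these shares lie above 16.3% of all genes with fewer, but the 29.4% of genes with a region is the closer comparison for families whose members nearly all have one. Over all genes, 5.36% had a start held by the untreated list alone and 3.5% by the phenelzine list alone.

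Other families were close to even. Of 43 cyclin and cyclin-dependent kinase genes 7 had more and 8 had fewer. Their starts were held by both lists in 21 and by the untreated list alone in 7, Ccnj (3.09) and Cdk16 (2.62) among them. The phenelzine list alone held 2, Cdk2 (1.54) and Ccnb2 (1.46). Over all genes the shares were 24.8% for both, 5.36% for the untreated list alone and 3.5% for the phenelzine list alone. Of 43 MAP kinase cascade genes 7 had more and 8 fewer, with Mapk9, the JNK2 gene, at 0 with and 1 without phenelzine at its start (4.26). Of 26 Ets, Runx and Ikaros genes 5 had more and 6 fewer, and of 16 Irf and Stat genes 3 each; Irf2 had 1 with and 4 without phenelzine. Of 31 H2 locus genes 4 had more and 7 fewer. H2-Q7 and H2-Q6, which share a locus and are close copies, had 2 with phenelzine and 0 without. Of 1106 olfactory receptor genes 1069 had no region in either list, with 9 having more and 12 fewer.

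The remaining families were those of 69 genes with Eif or Eef symbols, with 9 having more and 13 fewer, 73 with Hsp or Dnaj symbols, with 8 more and 15 fewer, 364 solute carriers, with 42 more and 66 fewer, and 35 transfer RNA synthetases, with 2 more and 5 fewer. Hsp90aa1, the inducible HSP90 gene, had 3 regions with phenelzine and 1 without, and Hspb6 had 2 with and 4 without phenelzine. Eif6 had 0 with and 1 without phenelzine at its start (3.20). The taurine transporter gene Slc6a6 had 0 with and 3 without phenelzine and Slc45a4 2 with and 0 without phenelzine. Aars2, a mitochondrial synthetase gene, had a phenelzine-alone start (5.01).

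The unstimulated libraries gave a readout that the classes did not use. Of regions of the stimulated phenelzine list alone, 20.3% (18.8 to 21.8) were held by the unstimulated phenelzine list and 14.4% (13.2 to 15.8) by the unstimulated untreated list. Of regions of the stimulated untreated list alone, 23.9% (22.6 to 25.3) were held by the unstimulated phenelzine list and 16.8% (15.7 to 18.0) by the unstimulated untreated list. Of shared regions 77.5% were held by the unstimulated phenelzine list and 71.7% by the unstimulated untreated list. The unstimulated phenelzine list was the longer, with 7929 peaks against 6519. Both kinds of 1-list region were found more often there, and phenelzine-alone regions had a lower share in it than untreated-alone ones. All 4 lists were also brought to the 6519 strongest peaks by −log10 q, and the stimulated regions were sorted into classes again. A region of 1 list in these new classes may have a weaker peak in the other list. The unstimulated phenelzine list then held 33.5% and the unstimulated untreated list 31.9% of phenelzine-alone regions. Of untreated-alone regions they held 38.01% and 33.9% in the same order. The part of list length in these shares was not tested further. With the full lists and the original classes, neither unstimulated list held 2019 of the phenelzine-alone regions (71.6%) and 2689 of the untreated-alone ones (68.6%).

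Promoters in the 2 classes of 1 list had similar motif content. Promoters whose 300 bases were overlapped by a region numbered 646 for the phenelzine list alone, 962 for the untreated list alone and 4636 for both, counted per RefSeq start. The AP-1 motif TGANTCA stood in 4.02% (2.65 to 5.84) of phenelzine-alone, 4.68% of untreated-alone and 3.84% of shared promoters, against 7.01% of all promoters. The CRE motif TGACGTCA stood in 3.41% (2.15 to 5.11) of phenelzine-alone, 5.20% of untreated-alone, 4.72% of shared and 2.26% of all promoters. The Ets motif CCGGAAGT stood in 12.8% of phenelzine-alone, 10.1% of untreated-alone, 12.8% of shared and 5.24% of all promoters. The SP/KLF motif GGGGCGGGG stood in 24.5% of phenelzine-alone, 24.9% of untreated-alone, 24.8% of shared and 15.6% of all promoters. The NF-Y motif CCAAT stood in 36.5% of phenelzine-alone and 36.8% of untreated-alone promoters, and in 50.2% of shared ones. The YY1 motif AAGATGGC was in 4.80% of phenelzine-alone and 6.13% of untreated-alone promoters. The NRF1 motif was in 2.01% of phenelzine-alone and 2.70% of untreated-alone promoters, and the NF-kB motif in 2.48% of phenelzine-alone and 1.98% of untreated-alone ones. TATAAA was in 7.43% of phenelzine-alone, 6.96% of untreated-alone, 4.85% of shared and 12.6% of all promoters. The short Runx motif TGTGGT was in 12.1% of phenelzine-alone and 11.9% of untreated-alone promoters. The NFAT core GGAAA was in 60.4% of phenelzine-alone, 59.0% of untreated-alone and 60.3% of all promoters. Median GC content was 61.7% in phenelzine-alone, 62.0% in untreated-alone and 56.7% in all promoters. All motifs were searched on both strands, and the GGAAA core can overlap the Ets and NF-kB motifs.

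MicroRNA genes and chromosomes were counted in the same way. Of 1005 microRNA hairpins in the RefSeq table, 5 had a region of the phenelzine list alone within 1 kb, 12 of the untreated list alone and 33 had regions of both lists; Mir7653 had the strongest phenelzine-alone one (4.28). By chromosome the phenelzine share of regions held by 1 list was lowest on X, at 31.3% (22.8 to 40.7) of 112 regions, followed by chromosome 18, at 33.7% (26.7 to 41.3), and highest on chromosome 12, at 47.1% (41.2 to 53.0), against 41.9% over all. Differences between chromosomes were not tested.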

How the data were processed

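Peak lists of 4 ATAC-seq libraries, 1 per condition, were used as deposited. The submitters' processing notes name the genome build mm10 and the tools Bowtie2 2.2.5, Trimmomatic 0.33, MACS2, HOMER and Picard, without parameters. The authors called broad peaks in each library on its own. The deposited score was 10 times −log10 q, rounded down, in 99.98% or more of peaks of each list. The deposited fold enrichment was a ratio of pileup over background. The deposited p-values and q-values were on the −log10 scale.

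Peaks of the 2 stimulated lists were merged by overlap of at least 1 bp, with coordinates counted from 1; 9 peaks on chromosome Y in each list were set aside. Genes, start sites (17274 of 21631 genes; either end for 4357) and promoters were taken from RefSeq tables of GRCm38.p6. Of 246 list genes 245 matched. Merging and counting returned 100% of 600 simulated regions and loci in their planted class. The rule for named genes took the strongest regions and largest differences in each class and list, and 21 fixed genes. Members, lists and families were chosen with earlier results of these data known. Python 3.11.15, pandas 2.3.3 and scipy 1.17.1 were used. The alternatives tried were higher peak thresholds, lists of equal size, other rules of overlap, other start windows and other locus sizes. Some genes that the rule took are not reported here.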

Additional observations from a re-analysis of the deposited data

Results flagged for a closer look

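Gene lists are given here where the summed difference of regions per locus, phenelzine minus untreated, had opposite signs in stimulated and unstimulated cells; the difference between the 2 was not tested, since each condition had 1 library. Cytokine and chemokine genes summed to −2 in stimulated and 2 in unstimulated cells. Cytotoxic granule and killer receptor genes summed to −4 in stimulated and 2 in unstimulated cells, and T cell receptor and CD8 identity genes to −3 and 2. Inhibitory receptor and exhaustion genes summed to 2 in stimulated and −1 in unstimulated cells. All are small counts in which neighbouring genes share regions. Outside the chromosomes compared, the stimulated phenelzine list held 9 peaks on chromosome Y and the stimulated untreated list 9. No repeat or mappability filter was applied, and the source of these peaks was not tested.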

How the results depend on the processing

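Of 72 recomputed main values 39 moved by less than their interval or by less than 1.5 times, and 33 moved further. For each higher threshold the lists were cut and regions sorted into classes again, so a region of 1 list may have a weaker peak in the other. With −log10 q of at least 3, regions numbered 1115 for the phenelzine list alone, 2135 for the untreated list alone and 2916 for both. At gene starts lay 64.1%, 64.6% and 85.8% of these classes. At this threshold 1489 genes had more regions with phenelzine and 2980 starts were held by both. With fold of at least 5 the regions numbered 1162, 1972 and 2751, with 65.1%, 66.5% and 87.1% at starts. Lists of equal size, with both stimulated lists at 9322 peaks, gave 35.2% at starts for the untreated list alone and 73.0% for both. Start shares, in the order phenelzine alone, untreated alone and both, were 27.1%, 29.2% and 69.8% with a 500 bp window, 37.2%, 40.1% and 75.3% with 5 kb, and 27.2%, 29.7% and 67.1% with either end of every gene, a setting chosen after seeing the data. For presence in the unstimulated lists all 4 lists were cut, to −log10 q of at least 3 or to 6519 peaks each, and classes were made again. Presence of phenelzine-alone regions in the unstimulated phenelzine and unstimulated untreated lists was 24.1% and 20.7% with the first cut. With the second it was 33.5% and 31.9%. Presence of untreated-alone regions was 25.5% and 24.3% with the first cut, and 38.01% and 33.9% with the second. Summed differences turned round for effector transcription factors (−2) and CD4 and regulatory T cell markers (1) with −log10 q of at least 3, and for activation receptors (−1) and inhibitory receptors (−1) with loci of 50 kb, where the values reported were 2, −2, 1 and 2; the cause was not tested. Among immediate early and AP-1 genes, 1, 3 and 4 members had more regions with phenelzine and 11, 10 and 10 had fewer, with −log10 q of at least 3, lists of equal size and loci of 50 kb in that order. With equal sizes 2612 of all genes had more and 2906 had fewer. No paired analysis was possible because each condition had 1 library.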
